A study of Mus musculus with 23 samples.

Results

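The 10 genes described here encode IgG Fc receptors, their shared signalling chain and the kinase cascade below them: Syk, Fcer1g, Fcgr1, Fcgr2b, Fcgr3, Fcgr4, Plcg2, Inpp5d, Vav1 and Btk. They were picked by symbol from a list of the pathway, by a rule that uses no measured value, although earlier results of these data were known. All 10 were found among the 35825 genes of the expression table, and all 10 reached 10 normalized counts in 3 or more libraries, as did the 17102 genes that were tested in all. GFP+ microglia were sorted from mouse retinas and sequenced in 23 libraries. WT refers to CX3CR1-GFP mice and KO to Spp1 KO; CX3CR1-GFP mice, which are homozygous for the mutant Spp1 allele, and every library of both genotypes comes from mice with the GFP reporter at Cx3cr1. Each genotype was analysed in naïve retinas (4 WT and 4 KO libraries), 4 weeks after elevation of the intraocular pressure (IOP) with microbeads (4 and 4) and on day 7 following crush of the optic nerve (ONC, 3 and 4). The labels give no ages. Each sort used retinas pooled from more than 1 mouse, the Spp1 deletion is global rather than restricted to 1 cell type, and nothing in the labels shows that libraries of a group came from separate sorts, so p-values measure the spread between these libraries.

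IgG Fc receptors let phagocytes bind antibody-coated targets. FcγRI (Fcgr1), FcγRIII (Fcgr3) and FcγRIV (Fcgr4) are the activating receptors of the mouse and signal through the FcRγ chain (Fcer1g), whose cytoplasmic ITAM motif is phosphorylated by Src family kinases and then bound by Syk. Syk activates phospholipase Cγ2 (Plcg2), the guanine nucleotide exchange factor Vav1 and, with other kinases, the Tec family kinase Btk, whereas FcγRIIB (Fcgr2b) carries an inhibitory ITIM motif that recruits the lipid phosphatase SHIP1 (Inpp5d). Microglia carry these receptors and use the same ITAM and Syk route downstream of Trem2 and Clec7a.

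In the mouse genome (GRCm38, GENCODE M21 annotation) 4 of the 10 genes lie close together on chromosome 1, namely Fcgr2b (chr1:170958617-170976547, minus strand), Fcgr4 (chr1:171018920-171029761, plus strand), Fcgr3 (chr1:171051174-171064935, minus strand) and Fcer1g (chr1:171229572-171234365, minus strand). Inpp5d lies apart from them on the same chromosome (chr1:87620312-87720507), and Fcgr1 (chr3:96282909-96293969), Plcg2 (chr8:117498291-117635142), Syk (chr13:52583173-52648792), Vav1 (chr17:57279100-57328031) and Btk (chrX:134542336-134583570) lie elsewhere. The 250 bases upstream of the start sites are shown for Fcgr4, Fcgr1 and Fcer1g, which were called higher after ONC in both genotypes under the deposited scaling. They are also shown for Fcgr3 and Fcgr2b, which lie near Fcgr4 and Fcer1g on chromosome 1 and were called higher after ONC in KO but not in WT (RefSeq, GRCm38.p6, all 10 members matched, the RefSeq start nearest to that of the principal transcript).
Fcgr4 (chr1:171018676-171018925, plus strand): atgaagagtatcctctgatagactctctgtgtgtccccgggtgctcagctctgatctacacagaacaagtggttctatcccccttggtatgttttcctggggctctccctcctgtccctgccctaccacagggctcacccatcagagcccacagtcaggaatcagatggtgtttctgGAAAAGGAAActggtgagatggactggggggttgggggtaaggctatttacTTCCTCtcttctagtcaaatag
Fcgr1 (chr3:96293970-96294219, minus strand): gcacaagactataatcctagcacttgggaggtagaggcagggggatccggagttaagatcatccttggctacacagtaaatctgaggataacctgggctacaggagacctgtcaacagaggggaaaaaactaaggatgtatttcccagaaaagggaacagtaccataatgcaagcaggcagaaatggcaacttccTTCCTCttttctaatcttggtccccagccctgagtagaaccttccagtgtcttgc
Fcer1g (chr1:171234350-171234599, minus strand): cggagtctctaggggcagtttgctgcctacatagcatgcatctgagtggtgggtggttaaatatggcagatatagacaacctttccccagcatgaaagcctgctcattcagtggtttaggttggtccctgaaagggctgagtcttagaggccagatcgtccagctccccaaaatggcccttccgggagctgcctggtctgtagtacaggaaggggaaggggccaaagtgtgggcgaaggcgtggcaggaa
Fcgr3 (chr1:171059404-171059653, minus strand): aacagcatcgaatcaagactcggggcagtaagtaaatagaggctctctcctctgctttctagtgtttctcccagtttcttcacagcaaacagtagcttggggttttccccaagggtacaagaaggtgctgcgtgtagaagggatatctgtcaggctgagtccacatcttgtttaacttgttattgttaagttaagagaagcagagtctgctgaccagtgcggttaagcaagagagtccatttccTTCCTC
Fcgr2b (chr1:170976072-170976321, minus strand): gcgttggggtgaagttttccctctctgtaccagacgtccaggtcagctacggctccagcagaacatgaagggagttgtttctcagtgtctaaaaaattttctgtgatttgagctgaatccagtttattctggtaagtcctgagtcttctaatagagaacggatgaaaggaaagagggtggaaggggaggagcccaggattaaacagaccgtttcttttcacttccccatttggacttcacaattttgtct
Capitals mark matches, on either strand, to the core of the binding motif of the myeloid factor PU.1 (GAGGAA) and to the paired GAAA of interferon-stimulated response elements, with 2 bases of any kind between the repeats. Matches of 1 kind did not overlap those of another. The PU.1 core was present in 5 of the 10 members (Fcgr1, Fcgr3, Fcgr4, Inpp5d and Vav1), between 6 and 55 bases before the start, and in 23.3% of 32851 mouse promoter windows of the same length. Its 8-base form (GAGGAAGT), which contains the core, was present in Fcgr4, Inpp5d and Vav1 and in 2.44% of windows. The GAAA pair was found only in the Fcgr4 window among the members and in 2.98% of all windows. These matches describe the letters of the windows and no binding was measured.

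Fcgr2b and Fcgr3 share long identical stretches of coding sequence, and reads from the shared part could be assigned to either gene. Of the 31-base words of the Fcgr3 coding sequence 30.2% also occur in transcripts of Fcgr2b, and the longest identical coding stretch is 129 bases (bases 263 to 391 of the Fcgr3 coding sequence and bases 278 to 406 of that of Fcgr2b): 
shared: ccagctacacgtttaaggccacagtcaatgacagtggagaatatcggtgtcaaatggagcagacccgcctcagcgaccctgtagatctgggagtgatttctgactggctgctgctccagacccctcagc
No other pair of members shared a word of that length. The split between these 2 genes is therefore uncertain, and their sum was tested as 1 feature as well.

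Reads on genes ranged from 22180480 to 30296094 per library, and a count of 3 reads corresponds to normalized counts of 2.41 to 4.03, far below every value of the members. Spp1 was at 334 to 1518 normalized counts in naïve WT, 1343 to 2772 in WT IOP and 14556 to 22906 in WT ONC libraries. In libraries labelled KO it was at 6.78 to 350.2, 9.28 to 811 and 15.0 to 6811, so that reads of the targeted gene remained in some of them. Group means were 164041 to 345181 for Csf1r, which microglia and macrophages share. For the microglia markers P2ry12 and Tmem119 they were 29666 to 62442 and 37322 to 63662. Markers of neutrophils and mast cells made up at most 0.000435% and 0.000182% of a library, those of NK and T cells at most 0.000627%, of B cells at most 0.00329% and of monocytes at most 0.0102%. Border macrophage markers (7 genes) made up 0.00582 to 0.223% and rod photoreceptor transcripts (10 genes) 0.507 to 3.60% of a library. A list of 8 genes that microglia and macrophages share (Csf1r, Aif1, Laptm5, Ctss, C1qa, C1qb, C1qc and Lgmn) made up 1.43 to 4.96% and moved against the rod genes: naïve KO replicates 1, 2 and 4 and WT IOP replicates 1 and 4 were low in the core list (1.43 to 2.25%) and high in rod genes (2.46 to 3.60%). In bulk libraries fewer cells of a type and less RNA per cell cannot be told apart. Cx3cr1 itself was at 952 to 1233 in KO IOP libraries, below every library of the other groups. It was at 9417 to 26283 in naïve KO and 12869 to 46130 in KO ONC libraries. In WT it was at 44958 to 67878 in naïve, 26836 to 54612 in IOP and 33361 to 54810 in ONC libraries. What set the KO IOP libraries apart at this gene, and its part in the KO IOP comparisons, was not tested.

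In naïve WT microglia the signalling chain was the most abundant of the 10 transcripts per length and Syk the least. Per kilobase of the principal transcript, Fcer1g had a mean of 28975 ± 1300 normalized counts (SD, n = 4), followed by the low-affinity activating receptor Fcgr3 with 18843 ± 1844. Inpp5d (3659 ± 351), Vav1 (3436 ± 360.1) and the inhibitory receptor Fcgr2b (2551 ± 371) came next, and their neighbouring ranges overlapped. The high-affinity receptor Fcgr1 (1606 ± 118), Plcg2 (1372 ± 103), Fcgr4 (747 ± 59.8), Btk (696 ± 79.1) and Syk (362 ± 66.5) followed, and of these only Fcgr4 and Btk overlapped. Fcer1g and Fcgr3 held the first places and Btk and Syk the last in all 6 groups. Fcgr1 moved from the sixth place in naïve WT to the third in WT ONC, where it had 4778 ± 1668 per kilobase (n = 3) and overlapped Vav1, and Fcgr4 (3427 ± 1045) then stood above Plcg2 (1652 ± 449).

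**Figure D1:**
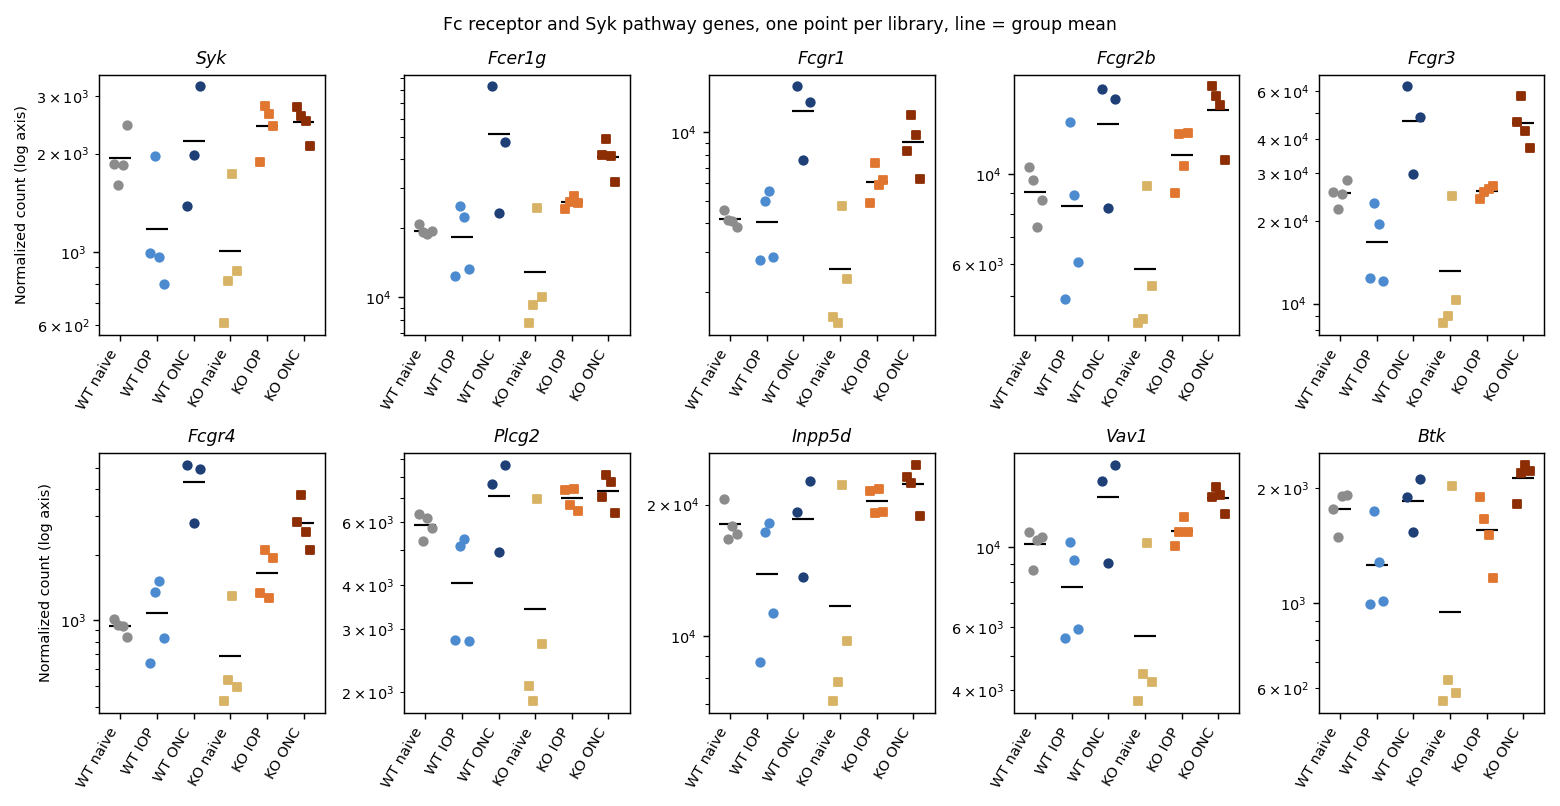
Normalized counts (log axis) of the 10 genes in the 23 libraries, 1 point per library, with WT as circles, KO as squares and the group mean as a line. For Fcgr4, the 3 WT ONC libraries (2795 to 5179) lie above all naïve WT libraries (837 to 1018), and naïve KO replicate 3 stands above the other 3 naïve KO libraries for every gene.

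After ONC, the activating receptors Fcgr4 and Fcgr1 and the signalling chain Fcer1g rose in WT microglia, and the other 7 members, with the third activating receptor Fcgr3 among them, did not pass the test. Whether the members differed from each other in their change was not tested. Genes were called with an adjusted p under 0.05 (limma, Benjamini-Hochberg over all genes tested) and an absolute log2 fold change over 0.58. In WT ONC against naïve WT, 3 of the 10 members were called, all higher, against 18.1% of all genes tested (7.55% higher). Fcgr4, an activating receptor for IgG2a and IgG2b, was at 1018, 953, 943 and 837 normalized counts in the naïve WT libraries and at 5179, 2795 and 4939 in the WT ONC libraries. The groups did not overlap, and the log2 fold change was 2.15 ± 0.34 (SE; adjusted p = 0.000164). Fcgr1 was at 4571, 4148, 4070.0 and 3841 before and at 15926, 7563 and 13621 after the crush. Every ONC library was again above every naïve library, with a log2 fold change of 1.51 ± 0.34 (adjusted p = 0.00422). Fcer1g was at 20792, 19177, 18782 and 19365 and then at 82939.7, 23312 and 47318. Here the groups were apart by a narrow margin, since WT ONC replicate 2 lay only just above the highest naïve library, and the log2 fold change was 1.21 ± 0.36 (adjusted p = 0.0240). Its call was lost without WT ONC replicate 1 (adjusted p = 0.215) or 3 (0.0711) and without naïve WT replicate 2 (0.0511) or 3 (0.0514), and without WT ONC replicate 2 the limma adjusted p was 0.00127.

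Fcgr3 did not pass the test in WT although its groups did not overlap. It was at 25662, 22300.2, 25201 and 28364 in naïve WT and at 62530.3, 29966 and 48092 in WT ONC libraries (log2 fold change 0.83 ± 0.31, adjusted p = 0.0673). Without WT ONC replicate 2 it was called (1.12, limma adjusted p = 0.0143). The sum of Fcgr2b and Fcgr3 gave 0.74 ± 0.31 (adjusted p = 0.0943). With Fcgr4, Fcgr1 and Fcer1g, this made 4 members whose WT ONC libraries all lay above the naïve ones, compared with 12.1% of all genes tested.

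The inhibitory receptor and the cascade differed less from naïve WT. Fcgr2b was at 10445, 9681, 7418 and 8625 in naïve WT and at 16201, 8249.7 and 15349.9 in WT ONC libraries. The groups overlapped through replicate 2, and the log2 fold change was 0.50 ± 0.31 (adjusted p = 0.260). Syk, the kinase that binds phosphorylated ITAMs, was at 1863, 1604, 1849 and 2444 and then at 1381, 1975 and 3208 (0.10 ± 0.32, adjusted p = 0.848). Its 3 ONC libraries spread from below to above the whole naïve range, and the 95% interval of the log2 difference ran from -0.56 to 0.77. For Plcg2, which cleaves membrane phosphoinositide to release calcium, for Vav1 and for Btk the log2 fold changes were 0.23, 0.39 and 0.06. Their naïve WT and WT ONC libraries overlapped, at 5326 to 6322 and 4952 to 8690.3 for Plcg2, 8621 to 11016 and 9046 to 16922 for Vav1 and 1486 to 1919 and 1534 to 2115 for Btk. In each of these genes the ONC libraries spread more widely than the naïve ones. Inpp5d, the phosphatase recruited by FcγRIIB, was at 16694 to 20569.9 and 13620.2 to 22663 (log2 fold change 0.01 ± 0.30, adjusted p = 0.991), a value whose sign turned under other scalings. WT ONC replicate 2 was also the library of its group with the lowest core share and the highest rod share (1.87%, against 0.507 and 0.606%), and the part of this in the spread was not tested.

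IOP elevation in WT gave 0 members called, against 1.56% of all genes tested; 2 members had an unadjusted p under 0.05 in limma (13.3% of all genes), and edgeR and DESeq2 on the recovered reads also called 0. Syk was at 993, 1961, 968 and 798 in WT IOP libraries, with replicate 2 inside the naïve WT range and the other 3 below it. Its log2 fold change was -0.79 ± 0.30 (adjusted p = 0.228). Fcgr3 was at 12384, 23370.4, 19512 and 12085 (-0.65 ± 0.29, adjusted p = 0.334). Fcgr4 and the chain Fcer1g gave values nearer to 0, at 640.3, 1349, 1511 and 831 for Fcgr4 (0.13 ± 0.32, adjusted p = 0.908) and at 12330.2, 25032, 22310.5 and 13335 for Fcer1g (-0.16 ± 0.34, adjusted p = 0.882). For Fcgr3, Fcgr4 and Fcer1g replicates 1 and 4, which were also low in the core list, were the lower 2 libraries. Lens genes made up 0.129 to 0.982% of the WT IOP libraries and at most 0.0149% of every other library. The part of these shares in the values was not tested. Of the 10 members 9 had a negative log2 fold change (median -0.44), and relative to the core list 6 did.

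**Figure D2:**
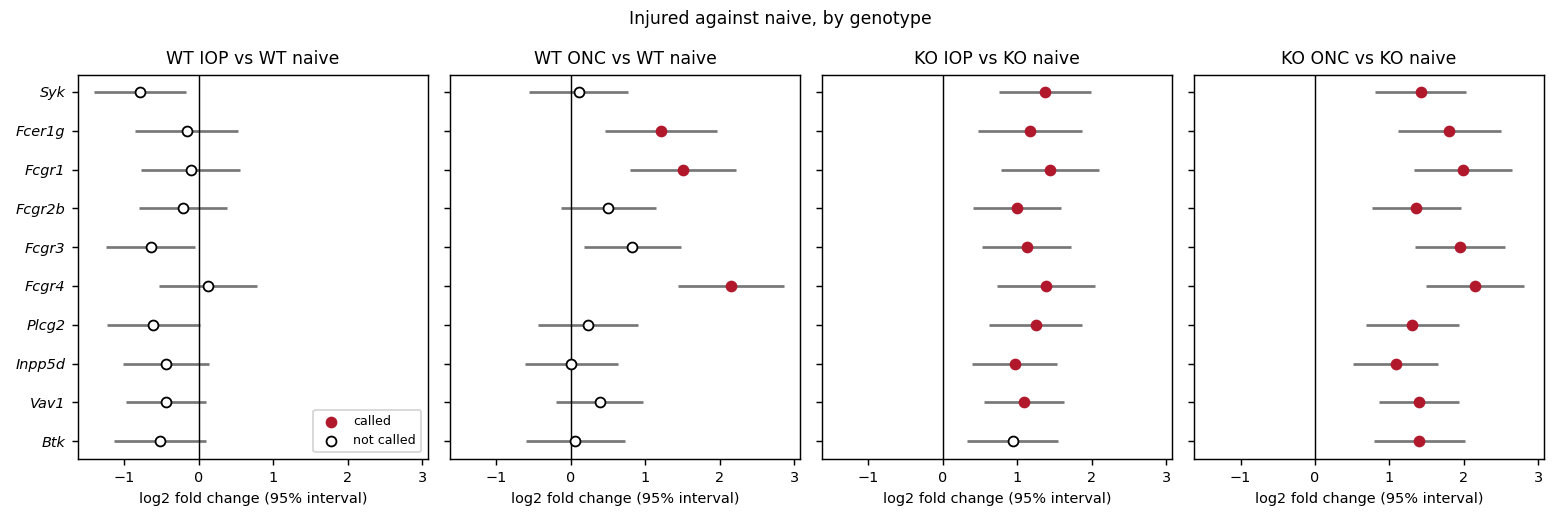
Log2 fold changes of the 10 members (x axis) in the injured libraries against naïve libraries of the same genotype, with 95% intervals and with called genes as filled points. In WT only Fcer1g, Fcgr1 and Fcgr4 were called after ONC, and in KO 9 of 10 were called after IOP elevation and 10 of 10 after ONC. Of these KO calls 0 and 0 remained after centring on the core list. Of the 8 core genes, 7 and 8 were themselves called higher in these KO comparisons.

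In libraries labelled KO, all 10 members were called higher after ONC under the deposited scaling, whereas relative to the core list 4 were higher, 6 lower and 0 called. In the naïve KO group 3 of 4 libraries were low for all 10 genes. Of all genes tested, 23.6% were called in KO ONC against naïve KO (12.7% higher). Fcgr4 was at 426, 532, 1290.3 and 495 normalized counts in naïve KO and at 2839.7, 3749, 2531 and 2099 in KO ONC libraries. The groups did not overlap, and the log2 fold change was 2.15 ± 0.32 (adjusted p = 7.43e-05). Fcgr1 was at 1545, 1462, 4762 and 2285 in naïve KO and at 8319, 11881, 9755 and 6272 in KO ONC libraries (1.99 ± 0.32, adjusted p = 0.000159). Its lowest ONC library was also above the highest naïve one. Fcgr3 was at 8505, 8981, 24701 and 10293 and then at 46250.1, 57871, 43071 and 37191 (1.95 ± 0.29, adjusted p = 7.93e-05). Fcer1g was at 7740.4, 9259, 24591 and 10063 and then at 41529.6, 48743, 41074 and 31772 (1.80 ± 0.34, adjusted p = 0.000588).

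The remaining members had smaller log2 fold changes in KO ONC than these 4. They were 1.42 ± 0.30 for Syk, 1.40 ± 0.30 for Btk, 1.40 ± 0.26 for Vav1, 1.36 ± 0.29 for Fcgr2b, 1.31 ± 0.30 for Plcg2 and 1.08 ± 0.28 for Inpp5d, with adjusted p between 0.000580 and 0.00684. The inhibitory receptor Fcgr2b was at 4305, 4413, 9362 and 5292 in naïve KO and at 16459, 15578, 14774 and 10837 in KO ONC libraries, and Vav1, which activates Rac GTPases, at 3736, 4442, 10228 and 4221 and at 13785, 14639, 13944 and 12319.8. Both groups lay apart for these 2 genes, with naïve KO replicate 3 the nearest. For Plcg2, Inpp5d and Btk the groups overlapped through naïve KO replicate 3, and for the other 7 members they did not, compared with 13.4% of all genes tested. The same 10 members were called whichever single library was left out.

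After IOP elevation 9 of the 10 members were called higher in KO under the deposited scaling, against 7.88% of all genes tested (5.06% higher), and relative to the core list 3 were higher, 7 lower and 0 called. Syk was at 608, 815, 1737 and 873 in naïve KO and at 1887, 2785, 2635 and 2421 in KO IOP libraries. The groups did not overlap (log2 fold change 1.37 ± 0.30, adjusted p = 0.0159). Fcgr1 was at 4885, 7319, 5902 and 6197 in KO IOP libraries, each above the highest naïve KO library (1.43 ± 0.32, adjusted p = 0.0169). Plcg2 was at 2089, 1889, 6978 and 2728 in naïve KO and at 7379, 6703, 7426 and 6439 in KO IOP libraries (1.24 ± 0.30, adjusted p = 0.0224), and Inpp5d at 7095, 7839, 22169 and 9728 and at 21529, 19156, 21767 and 19186 (0.96 ± 0.28, adjusted p = 0.0389). For these and the other members except Syk and Fcgr1 the groups overlapped, in each case through naïve KO replicate 3 (5.43% of all genes tested had all KO IOP libraries above the naïve KO ones). Btk, at 554, 631, 2030.4 and 582 against 1894, 1662, 1510.5 and 1167, was the member not called (0.94 ± 0.30, adjusted p = 0.0539). The count depended on single libraries and on the model: it was 0 without naïve KO replicate 1, 2 or 4 (0.538 to 1.2% of all genes tested called), 3 to 5 without KO IOP replicate 2, 3 or 4 (2.38 to 4.09%), 10 without naïve KO replicate 3 (18.6%), 4 with edgeR (3.27%) and 0 in a fit of these 2 groups alone (0.0292%). The calls over all genes moved with those of the members in these fits. Cx3cr1 was called lower in KO IOP against naïve KO (log2 fold change -4.17 ± 0.35, limma adjusted p = 8.33e-07). The monocyte marker Ccr2 was called higher (4.30 ± 0.76, limma adjusted p = 0.00611), with means of 1414 in KO IOP and 56.1 in naïve KO libraries. It was the 1 of 5 monocyte markers called. Of 7 border macrophage markers 1 was called, Ms4a7, also higher (1.33 ± 0.39, limma adjusted p = 0.0400). The part of these genes, Cx3cr1 included, in the members was not tested.

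Naïve KO libraries were lower than naïve WT libraries for all 10 members by group mean, but 0 were called, against 0.409% of all genes tested, and relative to the core list 5 were lower and 5 higher. In limma 9 of the 10 had an unadjusted p under 0.05 and were lower (9.97% of all genes). Of the members, edgeR called 0 (0.152% of all genes tested) and DESeq2 called 1 (3.13%). The log2 differences ran from -1.13 for Btk (adjusted p = 0.0712) to -0.60 for Fcgr4 (adjusted p = 0.364), with -1.04 ± 0.30 for Syk (adjusted p = 0.0895). Naïve KO replicate 3 lay within or above the naïve WT range for each member, while replicates 1, 2 and 4 lay below that range for each. Replicate 3 was also the library with the highest core list share of the group (3.96%, against 1.43 to 1.84% in the others) and the lowest rod share (1.16%, against 3.07 to 3.60%). Without it all 10 members were called lower, as part of 9.49% of all genes tested that were then called in either direction.

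The change after IOP elevation differed between the genotypes for 7 members in the test of the difference itself (interaction of genotype and IOP), against 8.75% of all genes tested (4.85% higher). Syk had the largest difference, with a log2 value of 2.16 ± 0.42 (adjusted p = 0.00660): its mean log2 level was lower in WT IOP than in naïve WT and higher in KO IOP than in naïve KO. The others were Plcg2 (1.86 ± 0.43), Fcgr3 (1.77 ± 0.41), Fcgr1 (1.54 ± 0.45), Vav1 (1.53 ± 0.37), Btk (1.46 ± 0.42) and Inpp5d (1.41 ± 0.39), with adjusted p between 0.0137 and 0.0357. Fcer1g, Fcgr2b and Fcgr4 had differences of 1.33, 1.21 and 1.26 with adjusted p of 0.0790, 0.0639 and 0.0782. Relative to the core list 0 were called, with Syk at 0.50 (adjusted p = 0.254). Under the deposited scaling the monocyte marker Ccr2, 1 of 5 tested, was also called higher in this interaction (3.62 ± 1.07, limma adjusted p = 0.0384). Its part in the members was not tested. Syk, Plcg2, Fcgr3 and Vav1 stayed past the threshold whichever single library was left out, while the count was 4 without naïve WT replicate 1, 3 or 4, WT IOP replicate 1 or 4, naïve KO replicate 1, 2 or 4 or KO IOP replicate 3 (3.35 to 6.05% of all genes tested called), and 10 without naïve KO replicate 3 (18%). For ONC the same test called 0 members, against 0.0702% of all genes tested, with 6 at an unadjusted p under 0.05 in limma (12.4% of all genes) and 0 called by edgeR or DESeq2. Without naïve KO replicate 3 it called 6, against 3.70% of all genes tested.

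Between the genotypes after injury 0 members were called. In KO IOP against WT IOP (2.11% of all genes tested called) the libraries of Syk were at 1887 to 2785 in KO and 798 to 1961 in WT, which overlapped through WT IOP replicate 2, and the log2 difference was 1.12 ± 0.30 (adjusted p = 0.0504). Over the alternative fits the adjusted p of this difference ran from 0.0120 to 0.278, and DESeq2 (0.0272), a pseudocount of 5 (0.0484), the replicate number as a block (0.0456) and leaving out WT IOP replicate 2 (0.0120) each placed it past the threshold. Plcg2 (6439 to 7426 against 2789 to 5393), Fcgr3 (24087 to 27036 against 12085 to 23370.4) and Inpp5d (19156 to 21767 against 8706 to 18103) had groups that did not overlap, compared with 5.11% of all genes tested. Their log2 differences were 0.86 ± 0.30, 0.67 ± 0.29 and 0.62 ± 0.28, with adjusted p of 0.122, 0.192 and 0.205. In total 6 members had an unadjusted p under 0.05 in limma and were higher in KO (9.02% of all genes), edgeR called 0 members and DESeq2 called 1, Syk. Under the deposited scaling all 10 members had a positive difference, and relative to the core list 2 did.

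In KO ONC against WT ONC (0.0877% of all genes tested called) 0 members had an unadjusted p under 0.05 in limma (9.36% of all genes), and edgeR and DESeq2 called 0. Fcgr4 had the lowest log2 difference, -0.60 with a 95% interval from -1.31 to 0.11 (adjusted p = 0.622), and Fcgr1 the next, -0.42 with an interval from -1.13 to 0.29. For Syk the difference was 0.27, with an interval from -0.39 to 0.94. WT ONC held 3 libraries, and its replicate 2 was the lowest of them for all members except Syk, whose lowest was replicate 1.

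The levels of the members varied with the core list from library to library. Across the 23 libraries, the Pearson correlation of each member's log2 level with the mean log2 level of the 8 core genes was 0.85 for Syk, 0.90 for Fcgr4 and 0.91 to 0.99 for the other 8, and that with the 10 rod genes was -0.77 to -0.93. These values describe libraries that share groups, scaling and total, and are no test. The core genes themselves were called higher under the deposited scaling. These were 7 of 8 in KO IOP (median log2 fold change 1.25), 8 of 8 in KO ONC (1.64) and 7 of 8 in the interaction with IOP (1.58). Of all genes tested 5.06%, 12.7% and 4.85% were called higher. Centring therefore gives values relative to genes that moved with the members. When each library was centred on the core list, 0 of 10 members were called in KO IOP against naïve KO (3 higher and 7 lower), 0 in KO ONC against naïve KO (4 higher and 6 lower) and 0 in the interaction with IOP (3 higher and 7 lower). That centring moved the median of all genes tested from -0.12 to -1.40, from -0.12 to -1.78 and from -0.08 to -1.74 in the same 3 comparisons. Of all genes tested 62.5%, 74.4% and 55.1% were then called, nearly all of them lower. With the mean rod level as a covariate 0, 3 and 0 members were called, against 0.0526%, 3.10% and 0.819% of all genes tested.

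**Figure D3:**
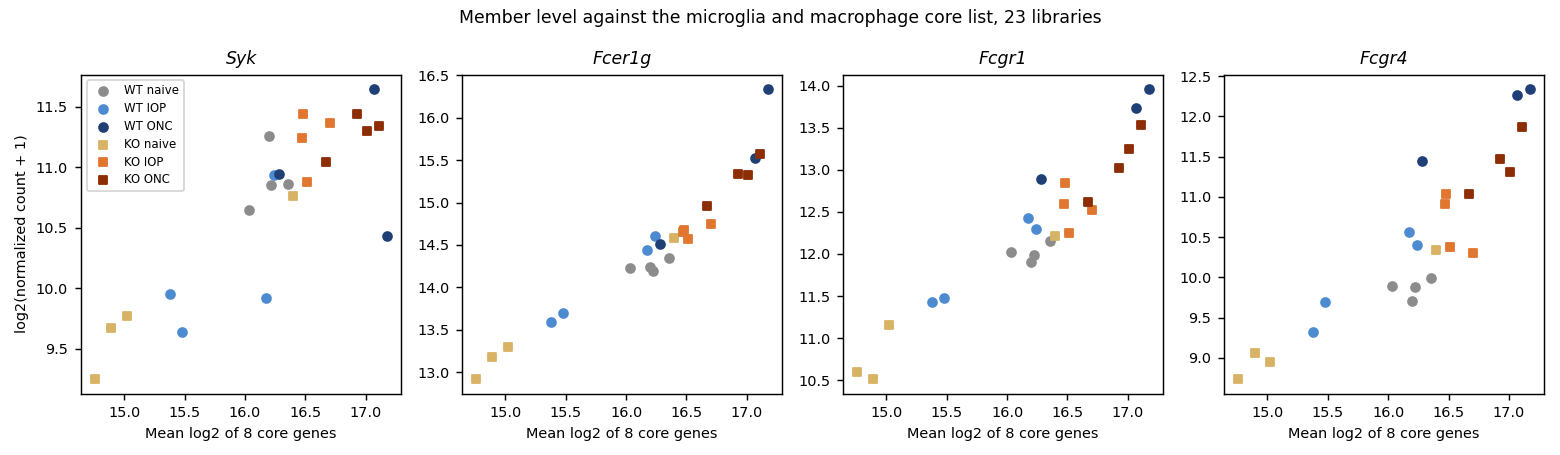
Log2(normalized count + 1) of Syk, Fcer1g, Fcgr1 and Fcgr4 (y axis) against the mean log2 level of the 8 core genes (x axis) in 23 libraries coloured by group. All 4 rise with the core list, with correlations of 0.85, 0.96, 0.95 and 0.90, and the WT ONC libraries stand above the trend for Fcgr4.

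Relative to the core list, Fcgr4 and Fcgr1 were called higher and Inpp5d lower in WT ONC, and the other 7 members were not called. In that fit 18.8% of all genes tested were called, and of these 3223 genes 307 were higher and the rest lower. The level of Fcgr4 minus the core mean was -6.49 to -6.14 log2 units in naïve WT (mean -6.33) and -4.84 to -4.80 in WT ONC libraries (mean -4.82), a difference of 1.51 ± 0.23 (adjusted p = 0.000167). Fcgr1 had means of -4.18 and -3.32, a difference of 0.87 ± 0.17 (adjusted p = 0.00199). Fcer1g had 0.57 ± 0.16 (adjusted p = 0.0157), just under the required fold change. Inpp5d had means of -2.07 and -2.70 and was lower by 0.63 ± 0.13 relative to the list (adjusted p = 0.00197). Under the deposited scaling its log2 fold change was 0.01, while the 8 core genes had a median of 0.54. The activating receptor Fcgr3 had means of -1.58 and -1.39, a difference of 0.19 (adjusted p = 0.265), and Fcgr2b had -0.14 (adjusted p = 0.615). Plcg2 (-0.41, adjusted p = 0.0478) missed the fold threshold, and Btk (-0.58, adjusted p = 0.0675), Syk (-0.53, adjusted p = 0.187) and Vav1 (-0.25, adjusted p = 0.150) missed that on adjusted p. The centring lowered the median of all genes tested in WT ONC from -0.10 to -0.74. All 10 members lay above that median under both scalings, because the centring moves all genes of a library alike.

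In KO ONC the corresponding differences from naïve KO were 0.49 ± 0.21 for Fcgr4 (adjusted p = 0.0383), 0.33 ± 0.16 for Fcgr1 (0.0714), 0.29 ± 0.11 for Fcgr3 (0.0261) and -0.58 ± 0.12 for Inpp5d (adjusted p = 0.000296), and none exceeded the required fold change. The centred Fcgr4 level was -6.07 to -5.84 in naïve KO and -5.70 to -5.23 in KO ONC libraries, so the groups did not overlap but KO ONC stayed below WT ONC. The interaction of genotype and ONC on this scale was -1.02 ± 0.31 for Fcgr4 (adjusted p = 0.119) and -0.54 ± 0.24 for Fcgr1 (adjusted p = 0.158), and neither was called.

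**Figure D4:**
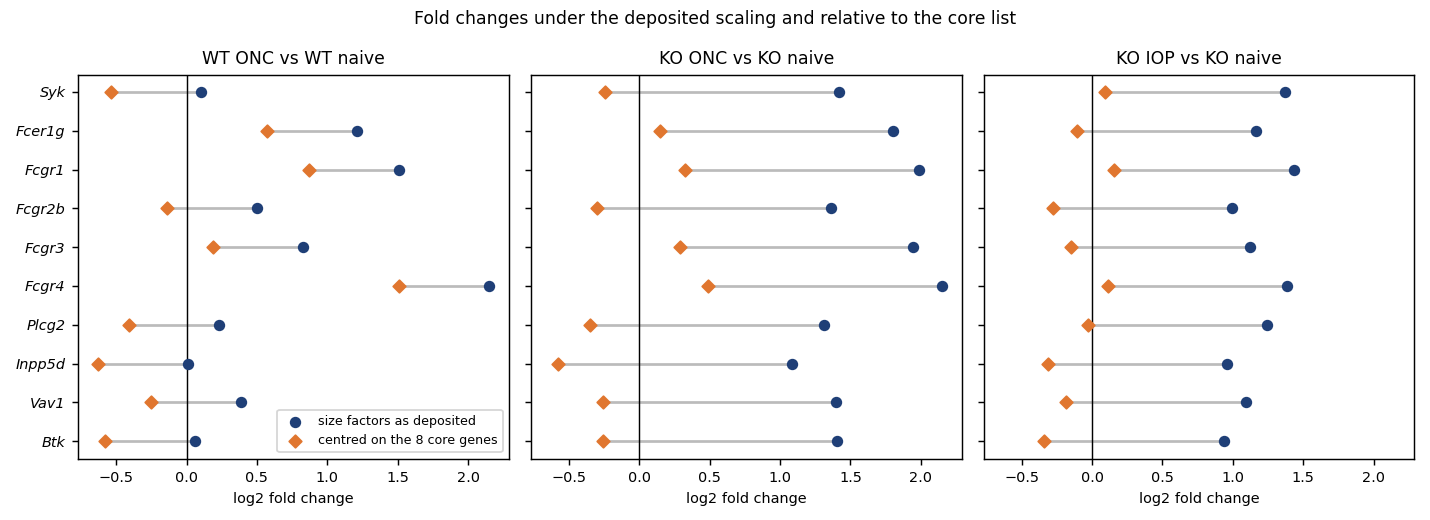
Log2 fold changes of the 10 members against naïve libraries of the same genotype under the deposited scaling (circles) and after centring each library on the 8 core genes (diamonds). In WT ONC, Fcgr4 and Fcgr1 stay at 1.51 and 0.87 after centring, whereas in KO IOP all 10 members lie between -0.34 and 0.16.

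The ratio of activating to inhibitory receptor within a library does not depend on the scaling between libraries. The Fcgr4 to Fcgr2b ratio was 0.0970 to 0.127 in naïve WT, 0.100 to 0.170 in WT IOP and 0.320 to 0.339 in WT ONC libraries. In KO it was 0.0935 to 0.138, 0.121 to 0.167 and 0.171 to 0.241. For this ratio the ONC libraries were above the naïve libraries in both genotypes, and the WT ONC range lay above that of KO ONC. Border macrophage markers made up 0.00582 to 0.0250% of WT ONC and 0.0259 to 0.0945% of KO ONC libraries, and their part in the ratios was not tested. The Fcgr1 to Fcgr2b ratio was 0.429 to 0.549 in naïve WT and 0.887 to 0.983 in WT ONC libraries, without overlap, while in KO it was 0.331 to 0.509 and 0.505 to 0.763, which overlapped narrowly. For Fcgr3 to Fcgr2b the ranges were 2.30 to 3.40 in naïve WT and 3.13 to 3.86 in WT ONC libraries, which overlapped. In KO they were 1.94 to 2.64 in naïve and 2.81 to 3.71 in ONC libraries, which did not. Sequence shared by Fcgr2b and Fcgr3 limits this ratio, and the level of Fcgr2b under the other 2 ratios as well. These ratios were compared after the levels had been seen and are given as descriptions, with no test.

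**Figure D5:**
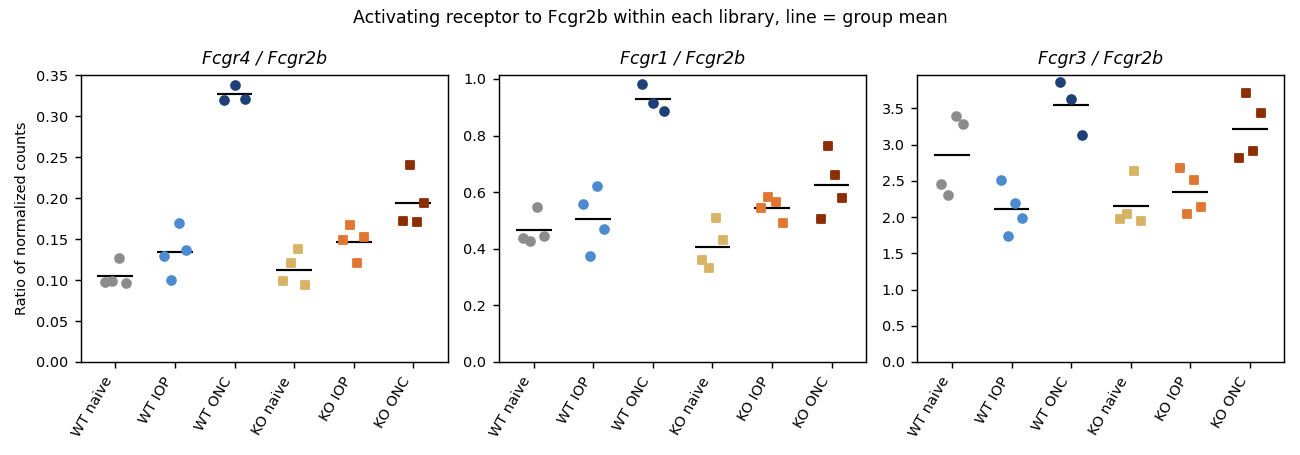
Ratios of the normalized counts of Fcgr4, Fcgr1 and Fcgr3 to those of Fcgr2b within each library (y axis from 0), with group means as lines. The WT ONC libraries hold the highest Fcgr4 and Fcgr1 ratios, with means of 0.327 and 0.929 against 0.195 and 0.627 in KO ONC.

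Other genes of the pathway were drawn from 6 lists with 120 genes, of which 110 were tested. In WT ONC and under the deposited scaling, 16 of them were called higher and 3 lower (14.5% and 2.73%, against 7.55% and 10.5% of all genes tested). Values of these genes relative to the core list, which lowered the median of all genes tested from -0.10 to -0.74 there, are not given. Among receptors and adaptors that signal through ITAMs, Clec7a, which encodes the β-glucan receptor Dectin-1 (log2 fold change 2.85 ± 0.35), the integrin chains Itgax (2.96 ± 0.49) and Itgb2 (1.06 ± 0.32) rose and the C-type lectin Clec4n fell by 4.34. The Src family kinase Fgr rose (2.01 ± 0.36), as did the adaptors Lat2 (1.17 ± 0.33), Blnk (1.04 ± 0.29) and Shc1 (0.79 ± 0.27). Among inhibitory genes, Cd300lf (3.16 ± 0.43), Cd72 (2.74 ± 0.33), Cd22 (2.18 ± 0.44) and Lilrb4a (1.82 ± 0.34) rose, all of them receptors with ITIM motifs. Among effectors Cyba, a subunit of the phagocyte oxidase (1.46 ± 0.38), the transcription factor Nfatc3 (1.26 ± 0.40) and the GTPase Rac1 (0.81 ± 0.28) rose, and the calcium channel Itpr1 (-1.52 ± 0.35) and Vav3 (-2.84 ± 0.94) fell. Trim21, a cytosolic antibody receptor, was called at 0.74 ± 0.26. Border macrophage markers (7 genes) made up 0.0676 to 0.147% of naïve WT and 0.00582 to 0.0250% of WT ONC libraries, and their part in the lower values was not tested.

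In KO and under the deposited scaling, 60 of the 110 pathway genes were called higher and 1 lower after ONC, and 48 higher and 0 lower after IOP elevation, both against the naïve KO group with its 3 low libraries. Of all genes tested 12.7% and 5.06% were called higher in these comparisons. In KO ONC, Itgax (4.75 ± 0.45), Fgr (3.21 ± 0.34), Cd300lf (3.31 ± 0.40), Clec7a (2.76 ± 0.33), Tyrobp, the ITAM adaptor of Trem2 (2.01 ± 0.28), Fcrls (1.84 ± 0.25), Rac2 (2.00 ± 0.30) and Blnk (2.02 ± 0.27) were called, and Itpr1 fell by 0.94. In KO IOP, Cd300lf (2.44 ± 0.40), Clec12a (2.24 ± 0.40), Itgax (2.05 ± 0.45), Pirb (1.80 ± 0.34) and Itgam (1.70 ± 0.34) were called. The naïve genotype comparison called Fcrls alone of the 110 (-1.48 ± 0.25, adjusted p = 0.0136). In KO IOP against WT IOP the inhibitory receptor Cd300lf (1.99 ± 0.40, adjusted p = 0.00938) and Ubash3b, a phosphatase that acts on Syk (1.74 ± 0.38, adjusted p = 0.0177), were called higher. WT IOP against naïve WT, KO ONC against WT ONC and the interaction with ONC called 0 of the 110 in limma, with 12 lower, 8 higher, and 35 higher and 2 lower, in that order, at an unadjusted p under 0.05 (7.15%, 6.74%, 8.21% and 4.22% of all genes tested). The interaction with IOP called 37 higher and 0 lower, against 4.85% of all genes tested called higher.

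By Pearson correlation of log2 levels over the 23 libraries, the named genes whose pattern was most like that of Syk were Csf2rb (0.94), Ctss (0.92), Hcls1 (0.91), Fgd2 (0.91) and Tifab (0.90). Those most like Fcer1g were Aif1, Fth1, Psmb8, Litaf and Srgn, with correlations of 0.985 to 0.988. Ctss and Aif1 belong to the core list.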

How the data were processed

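RNA-seq libraries of sorted retinal microglia (23) were assigned to genotype, treatment and replicate from their labels. According to the study's methods, reads were quantified with salmon against GRCm38 and analysed with DESeq2, while the submitters' processing notes list STAR and DESeq2; the annotation release is not given in the sources used here. The authors deposited 1 table of normalized counts, a signal that equals reads over a library-specific size factor. All positive values of all 23 libraries (100%) were whole multiples of 1 step within 0.02 reads, and whole reads were recovered from them. In KO IOP replicates 2 and 4 this step was close to 1.

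A pseudocount of 1 was added before taking log2, and group means were fitted with limma 3.58.1 (R 4.3.3, all 6 groups in 1 model, intensity trend) over 17102 genes, in 9 comparisons. Genes were called at a Benjamini-Hochberg adjusted p under 0.05 over all genes tested and an absolute log2 fold change over 0.58. Values of the interactions are differences of 2 log2 fold changes. Both injuries were compared with the same naïve libraries, so these comparisons share samples. Alternatives were exact two-sided permutation tests over libraries (smallest possible p 0.0286), edgeR 4.0.16 and DESeq2 1.42.0 on the recovered reads, other pseudocounts, filters and scalings, a rod covariate, a replicate block, fits of the compared groups alone and leaving out each library. The fitting procedure was also run on simulated counts with the same spread setting for every gene and no shift of a whole library. Those runs cannot bear on calls that rest on libraries whose genes moved together.

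Precision is limited by the number of libraries (3 or 4 per group), and the part of depth or of library composition in the spread was not tested. Replicates correlated with each other at 0.876 to 0.956 (Pearson's r on the log2 scale), and 0 library pairs held the same values. The 10 members and all gene lists were chosen with earlier results of these data known. Named genes are all members, up to 5 called genes of each pathway list with the lowest adjusted p per comparison, some of which are left out for length, and the 5 genes most correlated with Syk and with Fcer1g. Positions and transcript lengths are from GENCODE M21, and promoter windows from RefSeq (GRCm38.p6). Figures were drawn with matplotlib 3.10.9 in Python 3.11.15.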

Additional observations from a re-analysis of the deposited data

Results flagged for a closer look

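In naïve KO, replicate 3 stood apart from the other 3 libraries for 6 members, with a gap to the next library that took up most of the range of the group (Dixon's test at 95%): Fcer1g (24591 normalized counts), Fcgr3 (24701), Fcgr4 (1290.3), Plcg2 (6978), Vav1 (10228) and Btk (2030.4). In WT IOP, replicate 2 stood apart for Syk (1961). These are 7 of 50 pairs of member and group examined, where chance flags about 1 in 20, and the members are correlated, so the 6 values of 1 library are not separate observations. The same library was high in the core list and low in rod genes, with the values given above.

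The response to IOP elevation differed between the genotypes, by the interaction test, for Syk (log2 difference 2.16), Plcg2 (1.86), Fcgr3 (1.77), Fcgr1 (1.54), Vav1 (1.53), Btk (1.46) and Inpp5d (1.41). All 7 were higher in KO IOP than in naïve KO by group mean and lower in WT IOP than in naïve WT. Relative to the core list 0 of them were called.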

How the results depend on the processing

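In WT ONC against naïve WT, 2 to 4 members were called in each of the 13 other fits and with each library left out in turn, and Fcgr4 and Fcgr1 were past the threshold in all of them. With single libraries left out, 8.53% (without WT ONC replicate 1, 2 members) to 30.5% (without WT ONC replicate 2, 4 members) of all genes tested were called. DESeq2, which also called 4 members, called 21.5%. The exact permutation test gave p = 0.0286 for both, the smallest it can give, and 0.121 after adjustment over its 70 tests, so it could not bear on the calls. Inpp5d, near 0 in this comparison, turned to -0.11 with upper-quartile rescaling, -0.37 with quantile normalization, -0.63 relative to the core list, -0.38 with the rod covariate and -0.041 with the replicate block, and ranged from -0.15 to 0.21 with single libraries left out.

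Centring on the core list called 0 members in KO IOP and in KO ONC against naïve KO and 0 in the interaction with IOP. In WT ONC it left 4 members higher and 6 lower, with Fcer1g lost and Inpp5d called lower. Of all genes tested 18.8% were called there, and 307 of these 3223 were higher. With it the log2 fold changes in KO IOP turned to -0.11 for Fcer1g, -0.28 for Fcgr2b, -0.15 for Fcgr3, -0.030 for Plcg2, -0.31 for Inpp5d, -0.18 for Vav1 and -0.34 for Btk. In KO ONC they turned to -0.24 for Syk, -0.30 for Fcgr2b, -0.35 for Plcg2, -0.58 for Inpp5d, -0.26 for Vav1 and -0.26 for Btk. In the interaction with IOP they turned to -0.33 for Fcer1g, -0.12 for Fcgr1, -0.45 for Fcgr2b, -0.40 for Fcgr4, -0.26 for Inpp5d, -0.13 for Vav1 and -0.20 for Btk. In naïve KO against naïve WT they turned to 0.18 for Fcer1g, 0.036 for Fcgr1, 0.24 for Fcgr2b, 0.33 for Fcgr4 and 0.15 for Inpp5d. These values are relative to genes of the same cells by construction, and the cause of the shift of the core list was not tested.

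The rod covariate called 0 members in KO IOP, 3 in KO ONC and 0 in the interaction with IOP, and edgeR called 4 in KO IOP and 4 in that interaction. A fit of the compared groups alone called 0 in KO IOP. In naïve KO against naïve WT, quantile normalization called 3 (2.29% of all genes tested) and DESeq2 1 (3.13%), against 0.409% of all genes in the main fit. In KO IOP against WT IOP, a pseudocount of 5, DESeq2 and the replicate block called 1 each. For these fits of KO IOP against WT IOP, and for edgeR in the interaction with IOP, the share of all genes called is not given here. With single libraries left out, the counts ranged from 0 to 10 in KO IOP, from 0 to 10 in naïve KO against naïve WT, from 0 to 1 in KO IOP against WT IOP, from 4 to 10 in the interaction with IOP and from 0 to 6 in that with ONC. In KO IOP the share of all genes tested that were called ran from 0.538 to 18.6% with single libraries left out. The cause of these changes in the counts was not tested.

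The deviations of same-numbered libraries from their group means correlated at -0.25 to 0.15. An injured library correlated best with the naïve library of its own number in 3 of 4 cases for KO ONC, 2 of 3 for WT ONC and 1 of 4 for KO IOP. In the other comparisons 0 did. Whether the numbers mark a shared origin was not tested. With the replicate number as a block, 10 members were called in KO IOP against naïve KO (8.41% of all genes tested) and 1 in KO IOP against WT IOP, and the other 7 counts stayed as reported.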
